A study of Mus musculus with 4 samples.

Results

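The genes of the voltage-gated sodium and calcium channels were taken from the gene list of the count tables by symbol: the numbered Scn genes with an a or b ending, and numbered Cacna, Cacnb and Cacng genes. The rule did not take in every gene of these families. It found 39 of the 32285 genes. They comprised 10 sodium channel alpha subunits, 4 sodium channel beta subunits, 10 calcium channel alpha1 subunits, 3 alpha2delta subunits, 4 calcium channel beta subunits and 8 gamma subunits. No measured value entered the choice, although it was made with earlier results of these libraries known.

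A sodium channel alpha subunit forms the pore that carries the upstroke of the action potential, and beta subunits adjust its gating and its place in the membrane. A calcium channel alpha1 subunit forms a pore that opens on depolarisation and lets in the calcium that drives transmitter release, dendritic signalling and gene expression, while alpha2delta and beta subunits bring the pore to the surface and tune it. Most gamma genes of the brain encode TARPs (transmembrane AMPA receptor regulatory proteins), which escort glutamate receptors of the AMPA type to synapses, and are named after the muscle calcium channel subunit whose sequence they resemble.

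Single-nucleus RNA sequencing had been carried out on brain of wild type C57BL/6 mice, with the cerebellum removed. The mice were 10 weeks old, the tissue was frozen for 10 min on dry ice and at most 50 mg entered each nuclear extraction. Nuclei were fixed in 80% methanol at -20 °C for 30 min or were left unfixed. Brains were taken by craniotomy from mice under isoflurane anaesthesia (anaesthetised) or after cervical dislocation (post-mortem). The 4 groups were methanol anaesthetised, methanol post-mortem, unfixed anaesthetised and unfixed post-mortem, with 1 library each. Libraries came from the SeekOne DD droplet chemistry, which reads transcripts from their 3' end and counts molecules by their unique molecular identifiers (UMIs). Fixed nuclei also passed through the buffers of a preservation kit before library making. With 1 library per group there is no replicate check and no test: each ratio compares 2 libraries, and the 95% intervals given cover counting error only. The labels do not say whether the fixed and unfixed nuclei of a harvest came from 1 animal, and harvest cannot be told apart from animal or from tissue piece.

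After filtering, 6833 methanol anaesthetised, 9826 methanol post-mortem, 15134 unfixed anaesthetised and 12483 unfixed post-mortem nuclei were kept, with 51528633 to 67205676 UMIs per library. The median nucleus held 7829 and 6300.5 UMIs in the methanol libraries, against 3024.5 and 3785 in the unfixed libraries. Pairs of libraries shared 42 to 150 cell barcodes, at most 1.202% of the smaller library. Between 53.3% and 66.9% of nuclei passed a gate for a class. The gate asked for at least 3 different markers of the class. The share of the class's markers detected in the nucleus also had to be at least 1.5 times that of the next class. The 8 classes with at least 50 nuclei in every library are called excitatory-like, medium spiny-like, interneuron-like, subcortical glutamatergic-like, astrocyte-like, oligodendrocyte-like, oligodendrocyte precursor-like and microglia-like. These names rest on the markers that set the gate, so the markers give no separate check of the classes. For cerebellar granule neurons, 0 nuclei passed the gate. No channel gene served as a marker. Levels are CPM, the UMIs of a gene scaled to an equal total for each library or class. In precursor-like nuclei the interneuron markers together read 2882 to 4236 CPM, against 8398 to 10706 CPM for the precursor markers. In subcortical glutamatergic-like nuclei they read 1555 to 2296 CPM, against 3880 to 4658 CPM for that class's own markers. A gene was called higher or lower where it differed at least 1.5-fold, the same way, in both pairs of libraries of a comparison.

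Promoter windows are shown for 5 members to which the results below return: Scn4b and Scn2b, beta subunit genes on chromosome 9 that differ in class pattern; Scn2a, a sodium channel pore with a higher level after methanol; Cacnb2, the member of highest mean CPM; and Cacna1i, a T-type pore called lower after methanol. Each window runs from 250 bases before to 50 bases after a RefSeq start (GRCm38.p6, 5′ to 3′ on the gene's strand), and capitals mark CpG dinucleotides. The windows lie at chr9:45138374-45138673 for Scn4b, chr9:45117626-45117925 for Scn2b, chr2:65620519-65620818 for Scn2a (the first of its starts in the table), chr2:14604056-14604355 for Cacnb2 (likewise the first) and chr15:80286988-80287287 for Cacna1i, all on the + strand.
Scn4b: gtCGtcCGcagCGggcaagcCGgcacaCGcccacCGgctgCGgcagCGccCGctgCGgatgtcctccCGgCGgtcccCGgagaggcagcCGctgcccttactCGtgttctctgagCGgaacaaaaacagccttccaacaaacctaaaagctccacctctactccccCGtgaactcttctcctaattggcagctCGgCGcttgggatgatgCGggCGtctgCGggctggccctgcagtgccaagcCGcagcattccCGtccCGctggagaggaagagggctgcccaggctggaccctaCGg
Scn2b: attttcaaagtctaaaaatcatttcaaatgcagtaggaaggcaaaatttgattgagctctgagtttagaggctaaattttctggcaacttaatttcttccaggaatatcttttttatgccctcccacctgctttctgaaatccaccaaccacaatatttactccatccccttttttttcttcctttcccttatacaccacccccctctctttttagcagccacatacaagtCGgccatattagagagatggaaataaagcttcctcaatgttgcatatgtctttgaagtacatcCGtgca
Scn2a: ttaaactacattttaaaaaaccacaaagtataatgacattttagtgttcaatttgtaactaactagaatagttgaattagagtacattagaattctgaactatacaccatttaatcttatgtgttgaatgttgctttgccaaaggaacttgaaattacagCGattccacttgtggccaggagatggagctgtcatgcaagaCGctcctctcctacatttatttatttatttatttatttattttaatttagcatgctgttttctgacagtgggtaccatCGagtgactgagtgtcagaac
Cacnb2: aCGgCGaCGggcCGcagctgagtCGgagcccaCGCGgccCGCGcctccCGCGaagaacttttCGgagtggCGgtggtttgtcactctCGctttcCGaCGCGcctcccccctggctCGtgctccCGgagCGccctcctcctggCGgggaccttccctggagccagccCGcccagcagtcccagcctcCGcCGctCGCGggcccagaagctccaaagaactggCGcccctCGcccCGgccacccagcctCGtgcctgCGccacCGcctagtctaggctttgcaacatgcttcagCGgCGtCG
Cacna1i: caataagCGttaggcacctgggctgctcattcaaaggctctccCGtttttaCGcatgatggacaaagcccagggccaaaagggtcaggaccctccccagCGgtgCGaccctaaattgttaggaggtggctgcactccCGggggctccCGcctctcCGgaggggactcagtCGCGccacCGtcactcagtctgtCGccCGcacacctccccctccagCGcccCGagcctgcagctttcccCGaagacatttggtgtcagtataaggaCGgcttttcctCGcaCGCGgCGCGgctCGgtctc

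The Scn4b window held 26 CpG at 66.3% GC, the Cacnb2 window 35 at 71.7% and the Cacna1i window 23 at 62.7%. The Scn2b window held 2 CpG at 38.3% GC and that of Scn2a 3 at 33.0%. RefSeq windows were at hand for 29 of the 39 members, 40 windows in all. At least 20 CpG were found in 2 of the 12 sodium channel windows and in 12 of the 28 calcium channel windows, against 26.5% of all 32851 windows. The letters GGGCGG (the GC box, read on both strands) were in 37.5% of the member windows and 35.7% of all windows, and TATAAA (the TATA box) was in 5.0% of the member windows, 1 of Cacna1d and the Scn2a window that is not printed, and 13.6% of all.

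The channel genes differed first by class of nucleus. Of the 39 members, 29 reached a mean of 10 CPM over the 4 libraries in all nuclei. In the classes, 32 reached 10 CPM on average in at least 1 class with at least 50 UMIs over the classes, and 24 of these were highest in the same class in all 4 libraries, against 46.2% of the 13252 genes that met the same minimum. The class was medium spiny-like for 7 members, against 4.07% of genes, excitatory-like for 5, against 2.73%, subcortical glutamatergic-like for 5, against 2.73%, and interneuron-like for 3, against 2.57%. In glia it was precursor-like for 2 members, against 3.07% of genes, astrocyte-like for 1, against 7.19%, oligodendrocyte-like for 1, against 7.7%, and microglia-like for 0, against 16.2%. A lead of at least 2-fold over the next class in each library was held only by Scn4b, Cacng4 and Cacna1g, against 15.4% of genes. Scaled to the length of the gene in the genome, the mean level in all nuclei was 291 CPM per 100 kb for Cacna1a. It was 283 for Scn2a, 265 for Scn2b, 253 for Scn3b and 233 for Cacnb4. That scale was used only to set genes beside each other.

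**Figure D1:**
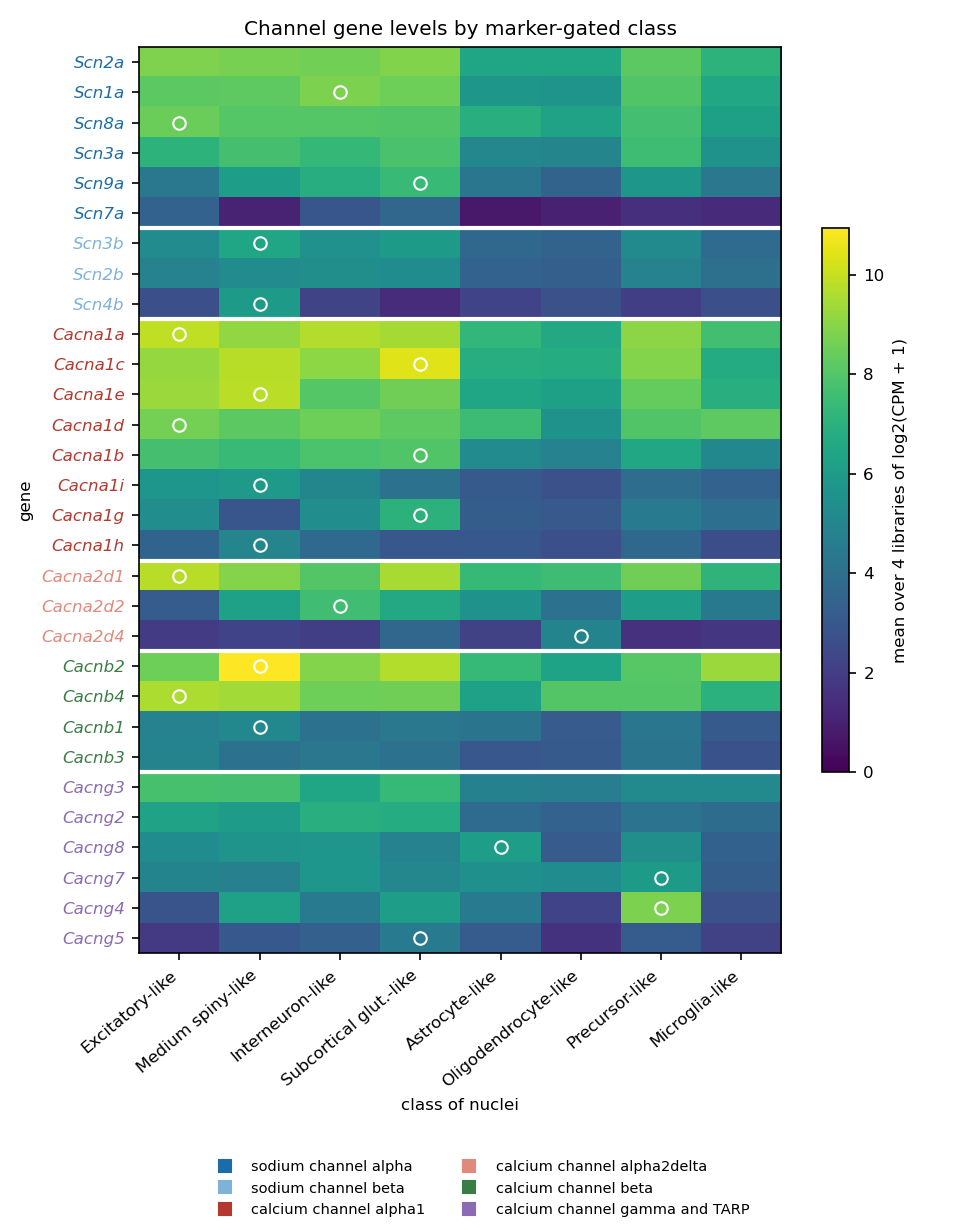
Mean over the 4 libraries of log2(CPM + 1) for 30 of the 32 members that reached 10 CPM in a class (rows, coloured by subunit family) in 8 marker-gated classes (columns). A white circle marks the class in which a member was highest in all 4 libraries, as for Scn4b in medium spiny-like, Cacng4 in precursor-like and Cacna1g in subcortical glutamatergic-like nuclei.

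Among the sodium channel pores, Scn1a, the main channel of fast-spiking interneurons, was highest in interneuron-like nuclei in every library. Its level there was 487 and 512 CPM in the methanol libraries (anaesthetised, then post-mortem, here and below), against 372 and 419 CPM in the unfixed libraries. It was higher still in the interneurons gated by markers of the medial ganglionic eminence, at 533 and 566 CPM after methanol and 425 and 476 CPM unfixed. After interneuron-like nuclei the next class was subcortical glutamatergic-like in each library, with a lead as low as 1.14 times. In excitatory-like nuclei Scn1a was 259 and 388 CPM after methanol, against 214 and 347 CPM unfixed. Scn8a, the channel of the axon initial segment and nodes, was highest in excitatory-like nuclei, at 376 and 328 CPM after methanol and 377 and 341 CPM unfixed. Scn2a, the channel of excitatory axons, had no fixed order over the neuronal classes, which lay between 342 and 557 CPM. Scn3a, best known from the developing brain, lay between 113 and 255 CPM in the neuronal classes and reached 183 and 202 CPM after methanol, against 158 and 196 CPM unfixed, in precursor-like nuclei. Scn9a, known as a channel of pain-sensing neurons, was highest in subcortical glutamatergic-like nuclei, at 161 and 179 CPM after methanol and 154 and 176 CPM unfixed, and stood at 14.6 to 26.3 CPM in excitatory-like nuclei.

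Of the beta subunits, Scn4b, which supports resurgent sodium current, marked medium spiny-like nuclei. It stood at 71.9 and 91.2 CPM there after methanol, against 39.2 and 52.7 CPM unfixed, and was at least 2.99 times the next class in every library. The methanol values lay above both unfixed values, and the share of all genes that do so was not counted. Scn3b was also highest in medium spiny-like nuclei, at 84.2 to 87.9 CPM over the libraries. Scn2b, whose window above holds 2 CpG, had no leading class, with 33.5 to 41.6 CPM in medium spiny-like and 35.8 to 44.1 CPM in interneuron-like nuclei. It was highest in interneuron-like nuclei in the methanol libraries. In the unfixed libraries it was highest in microglia-like (anaesthetised) and in precursor-like (post-mortem) nuclei.

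Of the calcium channel pores, Cacna1a (P/Q-type, which drives transmitter release) was highest in excitatory-like nuclei, at 729 and 744 CPM after methanol and 1165 and 1222 CPM unfixed. Cacna1d (L-type) was highest in the same class, at 397 and 351 CPM after methanol and 484 and 392 CPM unfixed. Cacna1c, the other main L-type pore of brain, led in subcortical glutamatergic-like nuclei at 1331 and 1158 CPM after methanol and 1655 and 1298 CPM unfixed, at least 1.44 times the next class. Cacna1b (N-type) led in the same class. Several of these orders rest on small differences: the lowest lead over the next class in a library was 1.05 times for Cacna1b, 1.07 for Cacna1a and Cacna1d, 1.08 for Cacna1i, 1.04 for Cacnb4 and 1.1 for Scn9a. Cacna1e (R-type) led in medium spiny-like nuclei at 955 and 839 CPM after methanol and 958 and 859 CPM unfixed. The T-type pores, which open near rest and support burst firing, split by class. Cacna1g led in subcortical glutamatergic-like nuclei at 129 and 122 CPM after methanol and 148 and 129 CPM unfixed, at least 2.89 times the next class. Cacna1h led in medium spiny-like nuclei at 33 and 30 CPM after methanol and 31.4 and 27.5 CPM unfixed, and Cacna1i led there at 45.5 and 49.3 CPM after methanol and 71.2 and 81.1 CPM unfixed. The subcortical glutamatergic-like class held 76 to 108 nuclei per library, the fewest of the 8.

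Of the auxiliary subunits, Cacna2d1 and Cacna2d2, the binding sites of gabapentin, had opposite patterns. Cacna2d1 was highest in excitatory-like nuclei, at 943 and 937 CPM after methanol and 781 and 838 CPM unfixed, though by as little as 1.09 times the next class. Within interneurons it read 1054 and 707 CPM after methanol and 849 and 546 CPM unfixed in nuclei gated by markers of the caudal ganglionic eminence. In nuclei gated for the medial eminence it read 34.6 and 60.3 CPM after methanol, against 62.0 and 57.2 CPM unfixed. Cacna2d2 read 197 and 227 CPM after methanol and 246 and 284 CPM unfixed in the medial gate, against 35.1 and 63.0 CPM after methanol and 61.6 and 57.4 CPM unfixed in the caudal gate. In excitatory-like nuclei it stood at 5.24 to 11.9 CPM. The caudal gate held 69 to 146 nuclei per library and the medial gate 171 to 305.

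Cacnb2, a beta subunit, stood at 1710 and 2475 CPM in medium spiny-like nuclei after methanol, against 1567 and 2246 CPM unfixed. In nuclei with Drd2-type markers it reached 2395 and 3304 CPM after methanol and 2253 and 3146 CPM unfixed, against 1420 and 2095 CPM after methanol and 1429 and 1914 CPM unfixed in nuclei with Drd1-type markers. It was also present in microglia-like nuclei, at 569 and 653 CPM after methanol and 606 and 667 CPM unfixed. At an equal depth of 1000 UMIs per nucleus, 38.9% (exact binomial interval 32.3% to 45.9%) and 42.1% of microglia-like nuclei held a Cacnb2 UMI after methanol, against 36.8% and 37.3% unfixed. Without thinning the shares were 42.0% and 42.9% after methanol, against 35.2% and 41.9% unfixed. The thinned share in oligodendrocyte-like nuclei, read here as a measure of free RNA, was 2.14% and 2.96% after methanol, against 7.97% and 7.10% unfixed. Thinning left out 128 and 283 microglia-like nuclei after methanol, against 485 and 281 unfixed, since they held fewer UMIs. Pde10a, a medium spiny marker read here as a measure of free RNA, stood in microglia-like nuclei at 305 and 98.0 CPM after methanol and 362 and 173 CPM unfixed, below Cacnb2 in each library, and in oligodendrocyte-like nuclei at 116 and 70.4 CPM after methanol, against 214 and 190 CPM unfixed, above Cacnb2 in each. The part of free RNA in the Cacnb2 values was not tested. Cacnb4, the beta subunit lost in lethargic mice, was highest in excitatory-like nuclei at 735 to 799 CPM over the libraries. It also stood at 258 and 230 CPM in oligodendrocyte-like nuclei after methanol, against 282 and 251 CPM unfixed. Cacnb1 and Cacnb3 stayed under 40 CPM in every class and library.

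The TARP genes also separated by class. Cacng4 stood at 495 and 393 CPM in precursor-like nuclei after methanol and 461 and 430 CPM unfixed, at least 4.89 times the next class in each library. In oligodendrocyte-like nuclei it read 1.90 and 0.828 CPM after methanol, against 9.07 and 7.87 CPM unfixed. Cacng8 was highest in astrocyte-like nuclei, at 45.9 and 60.9 CPM after methanol and 87.9 and 85.4 CPM unfixed, though by as little as 1.10 times the next class. Cacng7 was highest in precursor-like nuclei at 49.5 and 53.1 CPM after methanol and 71.6 and 74.3 CPM unfixed, by as little as 1.06 times. Cacng3 read 185 to 243 CPM in excitatory-like and 199 to 222 CPM in medium spiny-like nuclei and had no fixed leader. Cacng2, known as stargazin, lay between 52.1 and 141 CPM in the neuronal classes.

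**Figure D2:**
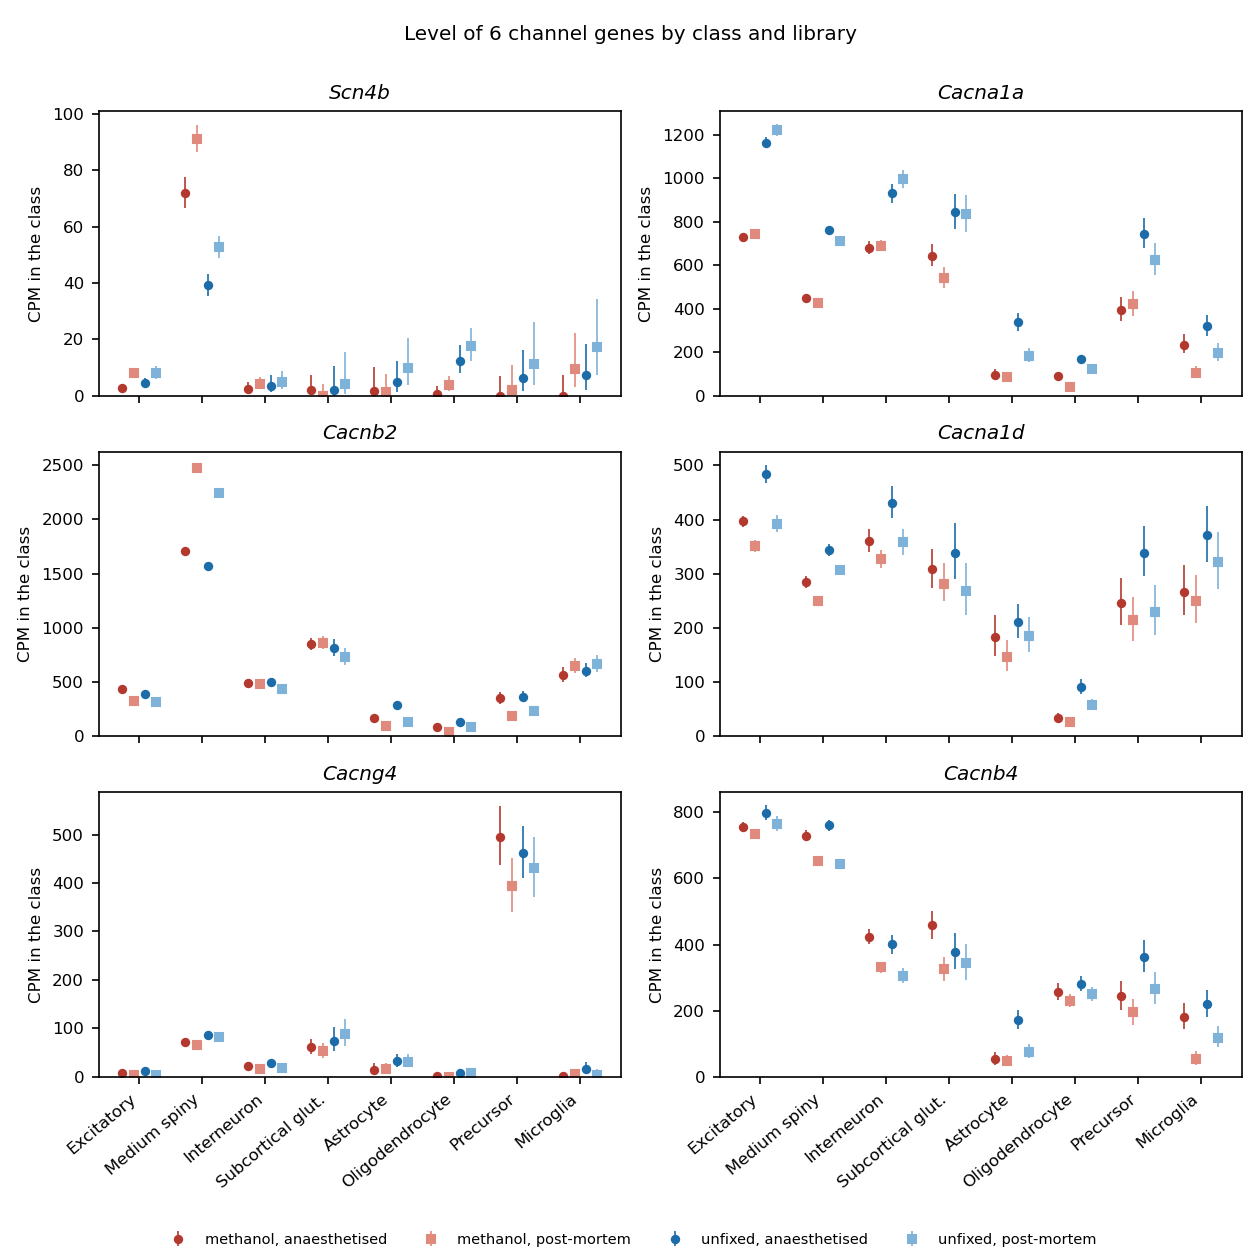
Level (CPM within the class, with exact 95% Poisson intervals) of 6 members in 8 classes, with the methanol libraries left of the unfixed libraries in each class. Scn4b is high in medium spiny, Cacng4 in precursor and Cacnb2 in medium spiny and microglia classes in all 4 libraries, and Cacna1a lies lower in each methanol library than in the unfixed library of the same harvest in all 8 classes.

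Methanol fixation was compared with no fixation, first over all nuclei, where the share of each class and the RNA per nucleus cannot be told apart. Of the 29 measured members, 2 were called lower and 0 higher, against 4.29% of the 9789 measured genes called lower and 3.51% called higher. Cacna1a read 596 and 569 CPM after methanol, against 906 and 860 CPM unfixed. Its log2 ratio was -0.60 in the anaesthetised pair (interval -0.62 to -0.58) and -0.60 in the post-mortem pair, just past the 1.5-fold line. Cacna1i read 34.5 and 38.3 CPM after methanol, against 55.7 and 59.5 CPM unfixed, with log2 ratios of -0.69 (interval -0.78 to -0.61) and -0.64. Cacna1a shares its span with Gm16183, annotated on the opposite strand, so its reads are uncertain. The same holds for 18 of the 39 members, Cacnb2, Cacnb4, Scn1a, Scn3a, Cacna1c, Cacna1d, Cacna2d1, Cacna2d2, Cacng4, Cacng8 and Scn2b among them, since the strand setting of the counting is not given in the sources used here.

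The TARP genes lay below 0 in both pairs for each of the 5 measured members, against 4594 of the 9789 measured genes. Their median log2 ratio was -0.44 and -0.39 in the anaesthetised and post-mortem pairs, against -0.02 in each pair over all genes. Cacng8 read 41.5 and 35.2 CPM after methanol, against 64.0 and 47.6 CPM unfixed, with log2 ratios of -0.63 and -0.44. Cacng7 had ratios of -0.63 and -0.41. Neither passed 1.5-fold in the post-mortem pair. Among sodium channel pores, 3 of the 4 measured genes of the cluster on chromosome 2 were above 0 in both pairs, against 4007 of 9789 genes. Scn2a read 482 and 442 CPM after methanol, against 382 and 356 CPM unfixed, with log2 ratios of 0.33 and 0.31. Scn1a had ratios of 0.29 and 0.26 and Scn3a of 0.32 and 0.22. Scn9a, the other measured gene of the cluster, had ratios of 0.09 and -0.09. These genes are close relatives, and how reads shared between relatives were counted is not given in the sources used here. The other pores named here stayed within 0.26 of 0 on the log2 scale. Over all 29 members the median ratio was -0.04 and -0.08.

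**Figure D3:**
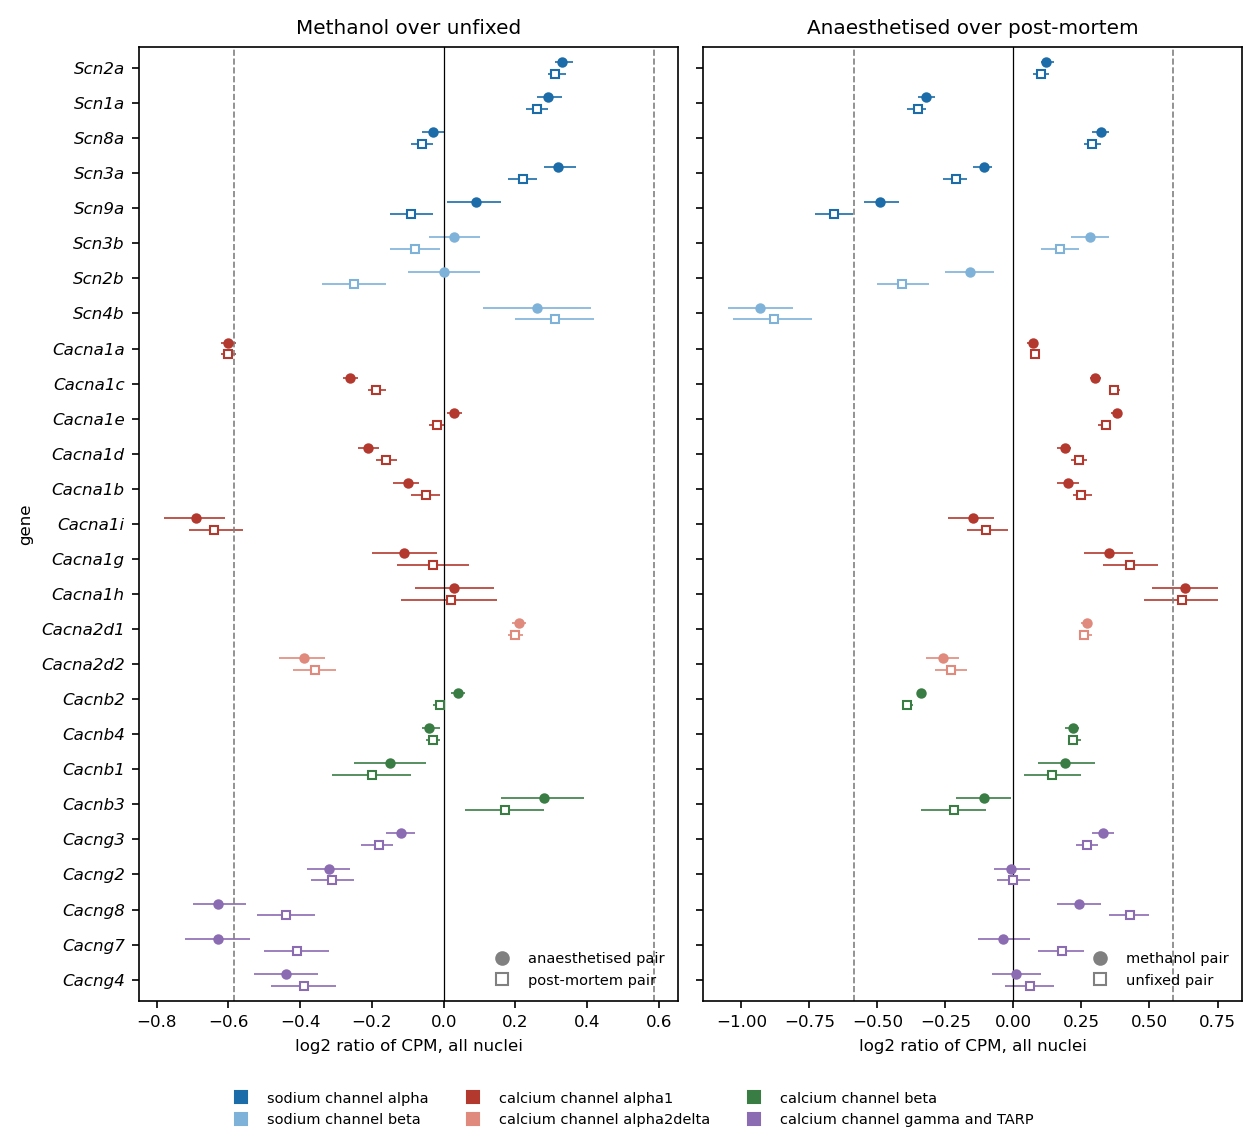
Log2 ratio of CPM over all nuclei for 27 of the 29 measured members, methanol over unfixed on the left and anaesthetised over post-mortem on the right, with a filled and an open symbol for the 2 pairs of libraries and exact 95% intervals of counting error. Dashed lines mark 1.5-fold. Cacna1a and Cacna1i lie past the line on the left, and Scn4b and Cacna1h on the right.

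The GC content of the longest annotated transcript moved with the fixation ratio over the 29 members. Spearman's rho across members was -0.46 and -0.35 in the anaesthetised and post-mortem pairs, against -0.25 and -0.27 across 9786 genes. These are correlations across genes of the same libraries, given as a description. Scn2a has a transcript of 43.4% GC, Cacna1a of 58.4%, Cacna1i of 59.3% and Cacng8 of 65.1%. Cacnb3 at 61.3% lay above 0, with ratios of 0.28 and 0.17. Length of the gene in the genome gave -0.04 and 0.01 over the members, against -0.29 and -0.16 over all 9789 genes. The part of GC content in the ratios was not tested.

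**Figure D4:**
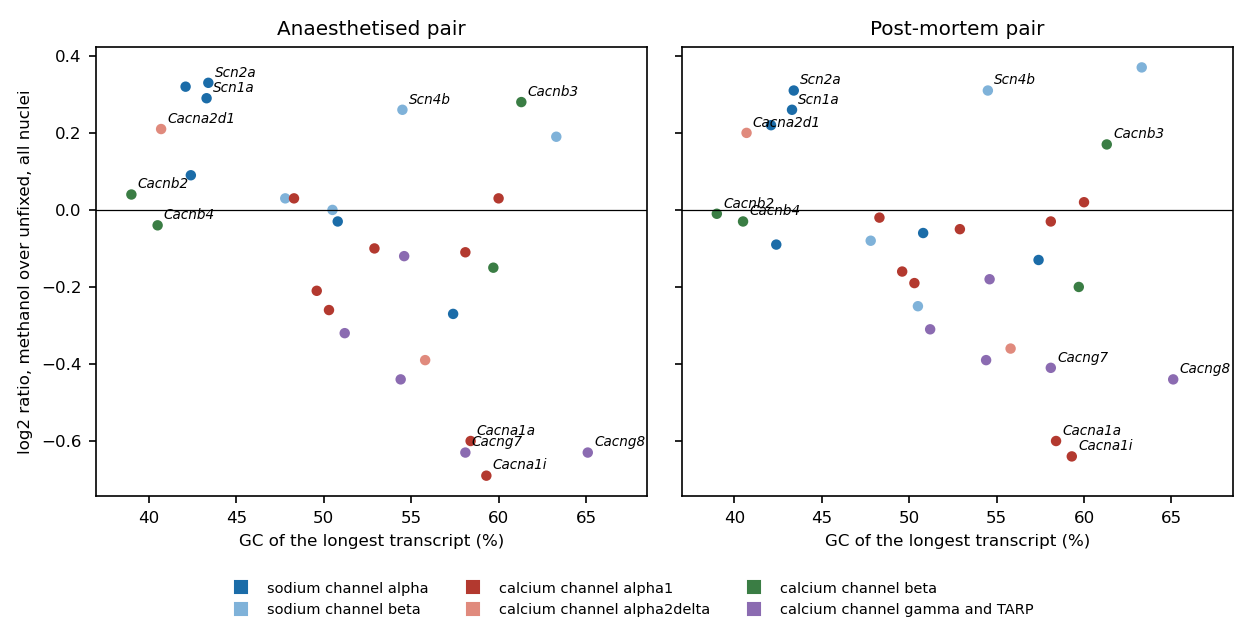
GC content of the longest annotated transcript (x, %) against the log2 ratio of methanol over unfixed in all nuclei (y) for the 29 measured members, by pair of libraries. Scn2a and Scn1a lie at the upper left, Cacna1a and Cacna1i at the lower right, and Cacnb3 is a GC-rich member above 0.

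Within the neuronal classes, the fixation ratios resembled those of all nuclei for the pores and differed for Scn4b. In excitatory-like nuclei 2 of 26 measured members were called lower, against 4.18% of genes, and 0 were called higher, against 4.39% of genes. They were Cacna1a, with ratios of -0.68 and -0.72, and Cacna1i, with -0.79 and -0.76. In medium spiny-like nuclei the same genes were lower, at -0.76 and -0.74 for Cacna1a and -0.65 and -0.72 for Cacna1i (2 of 28 members, against 6.2% of genes). Scn4b was the only member called higher there, against 4.49% of genes. Its ratio was 0.87 (interval 0.69 to 1.06) in the anaesthetised pair and 0.79 (0.66 to 0.92) in the post-mortem pair, and it was also called in the Drd1 gate at 0.87 and 0.91 (4.53% of genes called higher) and in the Drd2 gate at 0.74 and 0.64 (4.56%). Over all nuclei the same gene had ratios of 0.26 and 0.31. Other genes of striatal neurons differed among themselves in this class. Penk, the enkephalin precursor and a marker of the Drd2 gate, read 973 and 1088 CPM after methanol, against 221 and 347 CPM unfixed. Ppp1r1b, a marker used in the gate of the class, read 137 and 169 CPM after methanol and 85.7 and 122 CPM unfixed. Rgs9, also a marker of the class, read 692 and 729 CPM after methanol and 794 and 963 CPM unfixed. The Drd1 gate held 526 and 1003 nuclei after methanol, against 350 and 735 unfixed. For the Drd2 gate the numbers were 412 and 656 after methanol, against 633 and 908 unfixed. The part of this gating in the Scn4b ratios was not tested. At an equal depth of 1000 UMIs, 7.39% and 7.67% of medium spiny-like nuclei held a Scn4b UMI after methanol, against 3.93% and 4.64% unfixed, with 0.338% to 1.3% in excitatory-like nuclei. Without thinning the medium spiny-like shares were 38.4% and 43.0% after methanol, against 12.5% and 19.7% unfixed. In the Drd1 gate 3 of 28 members were called lower, among them Cacna1a and Cacng8, against 5.52% of genes. In the Drd2 gate 3 of 27 were lower, namely Cacna1a, Cacng7 and Cacng2, against 5.97%. Cacna1i was called in neither gate, with ratios of -0.54 and -0.79 in the Drd1 gate and -0.51 and -0.83 in the Drd2 gate. In interneuron-like nuclei 0 of 28 members were called, against 4.21% of genes lower and 2.63% higher, and Cacna1a read -0.45 and -0.53. In subcortical glutamatergic-like nuclei 1 of 25 members, Cacng7, was lower at -0.95 and -1.51, against 3.97% of genes, and 0 were higher, against 4.66%. In the medial interneuron gate 0 of 26 members were called, against 3.51% of genes higher and 4.46% lower. In the caudal gate 1 of 24, Cacng7, was lower at -0.77 and -0.68, against 3.89% of genes, and 0 were higher, against 3.21%.

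In each glial class some members were called lower after methanol. Every measured member of the oligodendrocyte-like and microglia-like classes had a ratio below 0 in both pairs. Among all measured genes this held for 4620 of 9402 in the oligodendrocyte-like class and 2567 of 7226 in the microglia-like class. In oligodendrocyte-like nuclei 17 of 22 measured members were called lower, against 14.3% of 9402 genes, and the median ratio was -0.84 and -1.20, against -0.13 and -0.14 over all genes. With doublets kept the count was 6, and at 2-fold it was 8. Scn2b, a sodium channel beta subunit, read 2.54 and 3.73 CPM after methanol, against 23.4 and 23.6 CPM unfixed, with ratios of -3.05 and -2.60. Scn3b had ratios of -1.91 and -2.14. Neuronal genes, read here as a measure of free RNA, were lower alongside: Slc17a7, a marker of excitatory neurons, read 14.6 and 7.45 CPM in these nuclei after methanol and 62.1 and 28.2 CPM unfixed, and Penk 32.4 and 59.2 CPM after methanol and 118 and 230 CPM unfixed. The 19 excitatory and medium spiny markers together read 383 and 301 CPM after methanol, against 868 and 703 CPM unfixed, with 18 seen in all 4 libraries. The part of free RNA in the members' ratios was not tested. Cacnb4, by contrast, had ratios of -0.13 (interval -0.31 to 0.06) and -0.13. Cacna2d4, known from the retina and highest here in this class, read 26.0 and 29.0 CPM after methanol, against 32.0 and 33.8 CPM unfixed, with ratios of -0.29 and -0.22. Lrtm2 overlaps Cacna2d4 on the opposite strand.

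In microglia-like nuclei 2 of 14 measured members, Cacng3 and Cacna2d1, were called lower, against 8.39% of genes, and 10 were with a stricter gate. Cacng3 had ratios of -1.37 and -2.21. Cacnb2 had ratios of -0.09 (interval -0.33 to 0.14) and -0.03 (-0.26 to 0.20), and Cacna1d, at 266 and 250 CPM after methanol and 371 and 321 CPM unfixed, of -0.48 and -0.36. The 19 excitatory and medium spiny markers together read 742 and 344 CPM in these nuclei after methanol, against 1090 and 639 CPM unfixed. In astrocyte-like nuclei 7 of 19 measured members were called lower, against 9.03% of genes, 2 with doublets kept and 4 with median-of-ratios factors. Among them Cacna1a had ratios of -1.82 and -1.08. The same markers read 893 and 715 CPM in this class after methanol, against 1342 and 987 CPM unfixed. In precursor-like nuclei 3 of 20 measured members were called lower, against 6.8% of genes, and 0 with doublets kept. Cacng4 had ratios of 0.10 (interval -0.15 to 0.35) and -0.13 (-0.42 to 0.16). In all 4 glial classes 0 members were called higher, against 3.06% of genes in oligodendrocyte-like, 4.49% in precursor-like, 5.37% in astrocyte-like and 6.05% in microglia-like nuclei.

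**Figure D5:**
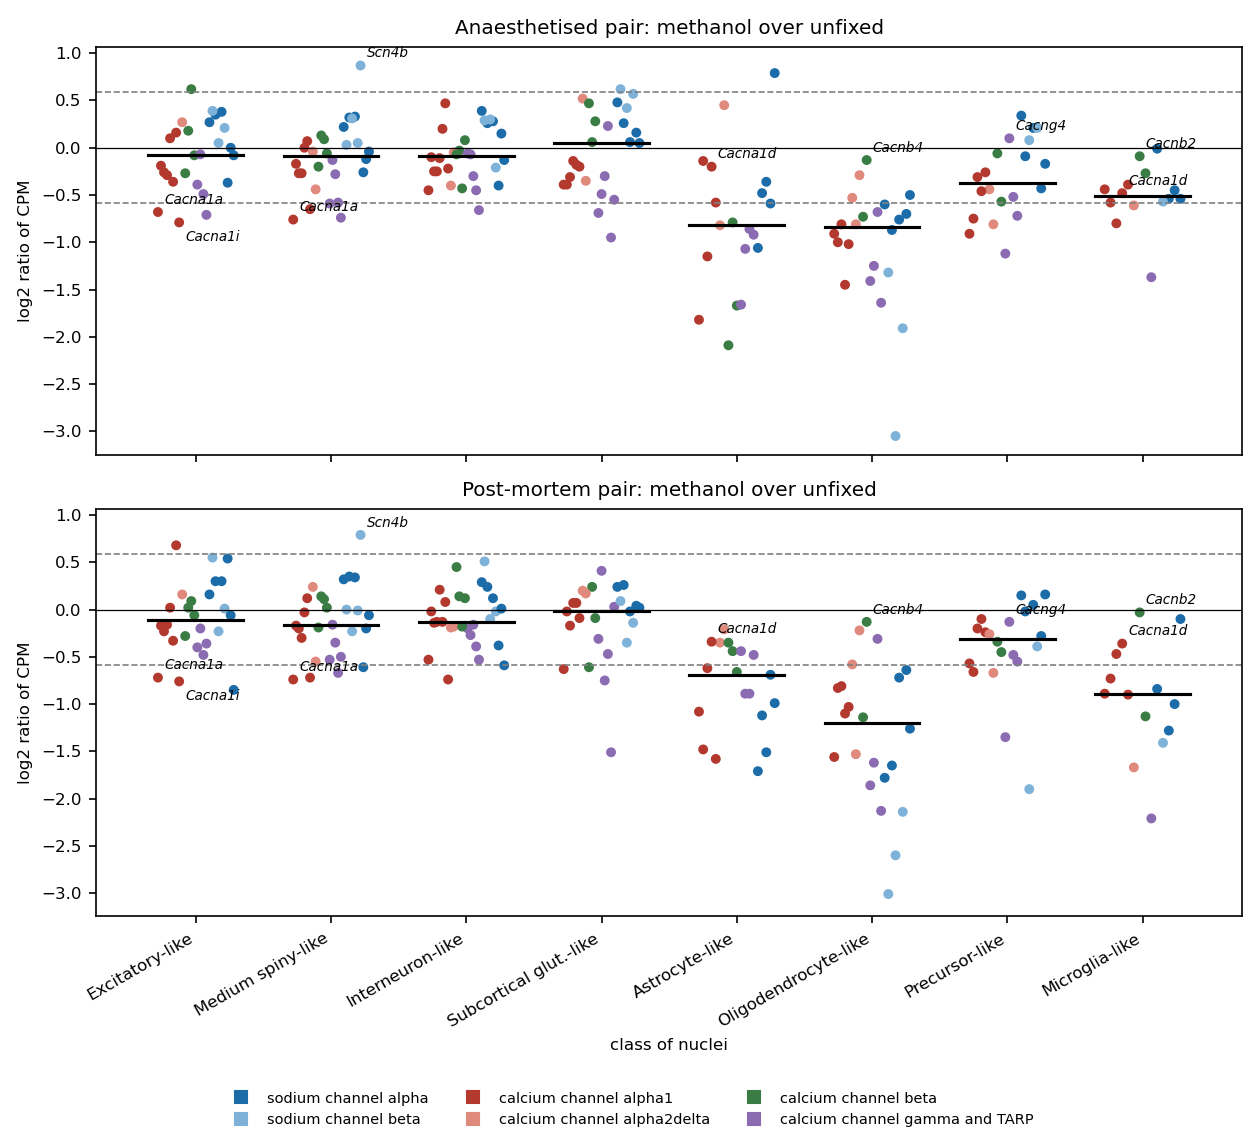
Log2 ratio of methanol over unfixed for each measured member (points, coloured by subunit family, in alphabetical order within a class) in 8 classes, for the anaesthetised pair above and the post-mortem pair below. Black bars are medians and dashed lines mark 1.5-fold. The medians lie near 0 in the neuronal classes and lowest in oligodendrocyte-like nuclei, where Cacnb4 stays near 0.

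Harvest from the anaesthetised animal was compared with post-mortem harvest in the same way. Over all nuclei 1 of the 29 members was called higher and 1 lower, against 1.64% and 1.1% of genes. Scn4b was lower, at 13.9 CPM in the anaesthetised and 26.5 CPM in the post-mortem methanol library, and at 11.6 CPM in the anaesthetised and 21.4 CPM in the post-mortem unfixed library. Its log2 ratios were -0.93 (interval -1.05 to -0.81) in the methanol pair and -0.88 (-1.03 to -0.74) in the unfixed pair. Medium spiny-like nuclei were 16.43% of nuclei in the anaesthetised and 19.92% in the post-mortem methanol library, and 17.93% in the anaesthetised and 24.65% in the post-mortem unfixed library. Within that class the Scn4b ratios were -0.34 and -0.42, not past 1.5-fold, and with the classes weighted equally they were -0.56 and -0.66, not past it in both pairs. Cacna1h was higher, at 23.5 CPM in the anaesthetised and 15.2 CPM in the post-mortem methanol library, and 23.0 CPM in the anaesthetised and 15 CPM in the post-mortem unfixed library. Its ratios were 0.63 and 0.62, and with doublets kept 0.61 and 0.55, so that the call was lost. Tpsg1 lies on the opposite strand of Cacna1h. At 2-fold 0 members were called for harvest, against 0.337% of genes higher and 0.112% lower, and 0 for fixation, against 0.306% higher and 2.22% lower.

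In excitatory-like nuclei 2 of 26 members were called higher under anaesthesia, against 3.32% of genes, and 0 lower, against 2.2%. Cacna1h read 19.2 CPM in the anaesthetised and 7.75 CPM in the post-mortem methanol library, and 17.2 CPM in the anaesthetised and 4.77 CPM in the post-mortem unfixed library, with ratios of 1.30 (interval 0.97 to 1.65) and 1.83 (1.26 to 2.47). Scn3b had ratios of 0.97 and 0.77. Scn1a read lower, at -0.58 and -0.69, and stayed just inside the line in the methanol pair. In interneuron-like nuclei Cacna2d1 was called higher at 0.64 and 0.84 (1 of 28 members, against 0.822% of genes) and 0 members were lower, against 0.863%. The count was 0 with doublets kept. The caudal gate, where the gene is high, held 69 nuclei in the anaesthetised and 113 in the post-mortem methanol library, and 146 in the anaesthetised and 91 in the post-mortem unfixed library. All interneuron-like nuclei numbered 322 in the anaesthetised and 577 in the post-mortem methanol library, and 539 in the anaesthetised and 516 in the post-mortem unfixed library. Within the caudal gate the ratios were 0.58 and 0.63, and within the medial gate -0.79 and 0.12. In medium spiny-like nuclei 0 of 28 members were called either way, against 1.34% of genes higher and 0.65% lower, and Cacnb2 read -0.53 and -0.52. In the Drd2 gate Scn9a was called higher at 0.60 and 0.60, against 1.28% of genes, and 0 members were lower, against 0.668%. In the Drd1 gate 0 of 28 members were called, against 0.864% of genes higher and 0.532% lower. The medial interneuron gate held 0 calls, against 1.18% higher and 1.7% lower, and the caudal gate 0, against 1.61% higher and 3.35% lower. In subcortical glutamatergic-like nuclei 0 of 25 were called, against 1.5% higher and 2.92% lower. Which pieces of brain entered each library is not stated, and the part of region in these ratios was not tested.

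In glia, members called in this comparison were higher under anaesthesia with 1 exception. They were 8 of 14 in microglia-like nuclei against 7.87% of genes, 7 of 22 in oligodendrocyte-like nuclei against 3.65%, 7 of 19 in astrocyte-like nuclei against 5.76%, and 2 of 20 in precursor-like nuclei against 2.69%. With a stricter gate the counts were 8 in microglia-like, 1 in oligodendrocyte-like, 1 in astrocyte-like and 0 in precursor-like nuclei, and with doublets kept they were 6 in microglia-like, 2 in oligodendrocyte-like and 4 in astrocyte-like nuclei. Called lower were 0 members in microglia-like nuclei, against 3.32% of genes, 0 in oligodendrocyte-like nuclei, against 0.681%, and 0 in astrocyte-like nuclei, against 2.18%. In microglia-like nuclei Scn8a had ratios of 1.51 and 1.95 and Cacna1e of 1.71 and 1.20. Sv2b, an excitatory neuron marker read as a measure of free RNA, stood in these nuclei at 86.7 CPM in the anaesthetised and 23.1 CPM in the post-mortem methanol library, and 140 CPM in the anaesthetised and 47.7 CPM in the post-mortem unfixed library. Penk moved the other way, with ratios of -0.92 and -0.94. The part of free RNA in the members' ratios was not tested. Cacnb2 in microglia-like nuclei, by its levels above, and Cacnb4 in oligodendrocyte-like nuclei were not among the members called. The exception was Scn9a in precursor-like nuclei, at 32.4 CPM in the anaesthetised and 88.5 CPM in the post-mortem methanol library, and 36.6 CPM in the anaesthetised and 78.8 CPM in the post-mortem unfixed library, with ratios of -1.42 (interval -2.35 to -0.62) and -1.10 (-1.93 to -0.31). Called lower were 2.89% of genes there, and 0 members under the stricter gate. Gm13629 overlaps Scn9a on the opposite strand.

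The remaining 10 members were below 10 CPM in all nuclei. Cacng5, at 10.3 and 7.16 CPM after methanol and 13.3 and 7.24 CPM unfixed, lay just under the minimum, while Scn4b passed it with a mean of 18.4 CPM. Scn7a, a sodium-sensing relative of the channels, reached 5.78 to 18.6 CPM in subcortical glutamatergic-like nuclei. Cacna2d4 had ratios of -0.92 and -0.79 after methanol and Cacna1f, the channel of photoreceptors, of -1.87 and -1.55, from 0.717 and 0.937 CPM after methanol against 2.65 and 2.76 CPM unfixed. The muscle genes Cacna1s, Scn4a and Cacng1, the sensory neuron genes Scn10a and Scn11a, and Cacng6 stayed under 1 CPM in each library.

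Genes that work with the channels were read from 3 lists of partners, 26 genes in the files. Over all nuclei, 9 of the 10 sodium channel partners were measured. After methanol 1 was called lower, against 4.29% of genes, and 0 higher, against 3.51%. The gene called was Sptbn4, the spectrin that holds sodium channels at the axon initial segment. It read 148 and 136 CPM after methanol and 237 and 228 CPM unfixed, with log2 ratios of -0.68 and -0.74. Ank3, its anchor, had ratios of -0.33 and -0.34, and the sodium channel modulator Fgf14 0.14 and 0.13. Of 12 calcium channel partners 10 were measured and 0 were called, against the same shares of genes. Rims2, an organiser of release sites, had ratios of 0.31 and 0.31, and Rimbp2, its partner, -0.37 and -0.33. The sodium leak channel Nalcn and the other 3 genes of its complex, measured in full, were not called over all nuclei, against the same shares. Nalcn stood at 0.09 and 0.09. For harvest 0 of the 23 measured partners were called over all nuclei, against 1.64% of genes higher and 1.1% lower. Fam155a of the leak channel complex came nearest, at 0.50 and 0.60, and Rimbp2 read 0.47 and 0.50. Within classes partners were called as well, most often in microglia-, oligodendrocyte- and astrocyte-like nuclei, and the part of free RNA in those ratios was not tested. For harvest in microglia-like nuclei 5 of 9 sodium channel partners, 2 of 6 calcium channel partners and 4 of 4 leak channel genes were higher, against 7.87% of genes. For fixation in oligodendrocyte-like nuclei 4 of 9 sodium channel partners, 3 of 7 calcium channel partners and 2 of 4 leak channel genes were lower, against 14.3% of genes. In excitatory-like nuclei 2 of 7 calcium channel partners were higher after methanol, against 4.39% of genes. The count was 2 of 10 in medium spiny-like nuclei, against 4.49%. It was 2 of 10 in the Drd1 gate, against 4.53%, and 2 of 9 in the Drd2 gate, against 4.56%.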

How the data were processed

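Single-nucleus RNA of 4 mouse brain libraries, 1 per group, was read from UMI counts per gene and barcode, deposited by the authors with no normalization. The submitters' processing notes name mm10 as the genome build. Which aligner, annotation and strand setting were used is not given in the sources used here. Gene positions came from a GENCODE annotation of the same build, matched by ID for 32235 of 32285 genes, and promoter windows from RefSeq (GRCm38.p6). Nuclei with at least 500 UMIs, at least 300 genes and at most 5% mitochondrial UMIs were kept, and doublets called by Scrublet (expected rate 6%) were removed, 8.95% to 15.23% per library. Libraries kept 51528633 to 67205676 UMIs. Nuclei were gated by at least 3 detected markers of a class and 1.5 times the share of markers detected for the next class. Sub-types were gated by 2 detected markers and 2 times the number for the other sub-type. The markers were listed at the outset, but the gate's thresholds were set after seeing the data. UMIs were summed per library and class and scaled to CPM. Log2 ratios had 0.5 counts added. A gene was measured at a mean of 10 CPM over the 4 libraries, in a class also with 50 UMIs. Intervals (95%) are exact Poisson, exact binomial (Clopper-Pearson) or exact conditional, and cover counting error only. No test between groups was made and samples were grouped by their labels. Every member was counted, and named with values where it reached 10 CPM in all nuclei or in a class. Of the partner lists, genes called or at 100 CPM or more were named. Alternatives were median-of-ratios factors, no CPM minimum, 2-fold, doublets kept, 1000 UMIs per nucleus, classes weighted equally, a stricter gate (4 markers, 2 times), genes overlapping on the opposite strand left out, and thinning to 1000 UMIs. The values of some members and partners are not reported here, although all entered the counts. The members and lists were chosen with earlier results of these data known. The call rule and ratio intervals were tried on simulated counts with planted 2-fold changes and counting error only. That trial held no other variation between libraries, so it cannot show how often such variation gives a call. Python 3.11.15, numpy 2.4.6, scipy 1.17.1, pandas 2.3.3, scanpy 1.11.5 and matplotlib 3.10.9 were used.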

Additional observations from a re-analysis of the deposited data

Results flagged for a closer look

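Of 422 pairs of ratios looked at, 3 pointed at least 1.5-fold in opposite ways in the 2 pairs of libraries, each on few UMIs, and the difference between the pairs was not tested. Scn9a in astrocyte-like nuclei had a log2 ratio of methanol over unfixed of 0.79 (interval -0.26 to 1.87) in the anaesthetised pair and -0.99 (-2.59 to 0.36) in the post-mortem pair, from 18 and 7 UMIs after methanol and 16 and 14 unfixed. Cacnb1 in astrocyte-like nuclei had a ratio of anaesthetised over post-mortem of -1.07 (-3.27 to 0.54) in the methanol pair and 0.67 (-0.26 to 1.69) in the unfixed pair. Scn2b in precursor-like nuclei had a ratio of anaesthetised over post-mortem of 1.00 (-0.33 to 2.59) in the methanol pair and -0.99 (-1.99 to -0.04) in the unfixed pair.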

How the results depend on the processing

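Of the counts and medians that answer a comparison, 53 values under the alternatives stayed close to the reported one and 21 moved. Over all nuclei, the 2 members lower after methanol became 1 with median-of-ratios factors, 1 without genes overlapping on the opposite strand, 0 at 2-fold and 4 with no CPM minimum. With classes weighted equally the median fixation ratio was -0.18 in the anaesthetised and -0.21 in the post-mortem pair, against -0.04 and -0.08. The 1 member higher under anaesthesia became 0 at 2-fold, with doublets kept, with classes weighted equally and without overlapping genes, and the 1 lower became 0 at 2-fold and with classes weighted equally. Summed over the 8 classes, 1 call higher after methanol became 2 with the stricter gate and 0 at 2-fold, and 34 calls lower became 17 with doublets kept and 12 at 2-fold. The 27 calls higher under anaesthesia became 13 with the stricter gate, 17 with doublets kept and 10 at 2-fold, and the 1 lower became 0 with the stricter gate and 3 with doublets kept. Members highest in 1 class numbered 20 with the stricter gate and 23 with doublets kept, against 24. Called members that changed sign in 1 or both pairs were all glial. With doublets kept these were Cacnb4 (fixation, astrocyte-like, -1.03 and 0.63), Scn1a (fixation, oligodendrocyte-like, 0.15 and -0.08) and Cacna2d1 (harvest, astrocyte-like, -0.02 and 1.20). With the stricter gate they were Cacna1c (-1.41 and 0.40) and Cacng3 (-0.48 and 2.36) for harvest in astrocyte-like nuclei and Cacng3 (-1.02 and 1.18) in precursor-like nuclei. The cause was not tested. Of the values for single members, shares and counts in a class, 376 stayed close and 195 moved. With classes weighted equally, 55 of the 58 ratios of single members over all nuclei moved. No paired analysis was possible because the labels give no replicate numbers that groups share. Each comparison already sets libraries of the same harvest or the same fixation side by side, as 2 ratios. With 1 library per group no replicate could be left out. Depth limits the 3 members with ratios of at least 1.5-fold in opposite directions in the 2 pairs, which rest on 4 to 29 UMIs per library.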
